A study of Mus musculus with 6 samples.

Results

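The genes described here are 32 genes of cholesterol and fatty acid synthesis and their control, measured in regulatory T cells made in culture from mice with and without miR-31. The list was drawn up by function and holds 15 enzymes of sterol synthesis, 5 regulators of the sterol response, 10 enzymes of fatty acid synthesis, elongation and desaturation and 2 cholesterol efflux transporters, out of 27376 gene names on the array. Each gene was read from the probe with the highest mean signal over the arrays. The scale was log2 of the processed spot signal minus the 75th percentile of the same array, so a value of 0 is a signal equal to that percentile. All 32 genes had a probe that entered the test, 31 of them well above background on all 6 arrays and Scd1 on 5. The remaining Scd1 spot, on cKO array 3, was not counted because it was dropped as an outlier.

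The knockout group (cKO) was 3 miR-31 fl/fl CD4Cre mice and the control group 3 age-matched mice, which the study's methods give as miR-31 fl/fl without Cre. The mice were 6 weeks old, and the study's methods give a C57BL/6J background. CD4Cre expresses Cre from the Cd4 gene's control elements, so deletion starts in the thymus and covers every T cell that has passed through a CD4-positive stage. Only the cKO mice carried Cre, so loss of miR-31 and the presence of Cre cannot be told apart. In both groups naive splenic T cells (gated as CD4+CD25-Foxp3gfp-CD62Lhi) were cultured for 4 days on plate-bound anti-CD3 (5 μg/ml) with soluble anti-CD28 (2 μg/ml), TGF-β1 (5 ng/ml) and IL-2 (40 ng/ml per the labels; the study's methods give another dose). TGF-β1 drives part of the activated cells to express Foxp3, and the product is called induced regulatory T (iTreg) cells. Each mouse gave 1 culture and 1 one-colour Agilent array, and nothing in the labels says that Foxp3-positive cells were sorted again before RNA was made, so the values are averages over whole cultures.

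Between 49.3% and 57.7% of probes were well above background per array, and no spot was saturated. Arrays correlated at 0.974 to 0.985 within the cKO group, at 0.984 to 0.989 within the control group and at 0.948 to 0.984 between groups. Slide 1 held all 3 cKO arrays together with control array 1, and slide 2 held the remaining controls, so each comparison was also made with the slide as a term. In that fit the difference is the cKO mean minus control array 1 alone, and the other controls add to the estimate of the spread. miR-31 itself has no probe on the array, and its loss was therefore not checked in these cells.

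Cells make cholesterol from acetyl-CoA through mevalonate, farnesyl diphosphate, squalene and lanosterol. The transcription factor SREBP-2 (Srebf2) drives the genes of this route and SREBP-1 (Srebf1) mainly those of fatty acid synthesis. Both are held in the endoplasmic reticulum, where SCAP escorts them to the Golgi when sterols are low and the INSIG proteins retain them when sterols are high. Activated T cells switch this programme on to build membranes before they divide, and the mevalonate route also supplies isoprenoids that anchor signalling proteins.

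The deleted microRNA is shown first, since its loss defines the groups. In RefSeq (GRCm38.p6) the major arm of mouse miR-31 lies on the minus strand at chr4:88910614-88910635. Capitals mark the seed, bases 2 to 8, which pairs with targets.
mmu-miR-31-5p: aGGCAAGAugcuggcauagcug
mmu-miR-31-3p: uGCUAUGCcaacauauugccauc

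SREBPs bind sterol regulatory elements next to sites for NF-Y, which binds CCAAT, and Sp1, which binds GC boxes. RefSeq promoter windows of 300 bases (250 before to 50 after a gene's start, GRCm38.p6) were at hand for 25 of the 32 genes, in 34 windows, and were searched on both strands for TCACNCCAC (a sterol regulatory element), CCAAT and GGGCGG. TCACNCCAC was found in 1 member, Hmgcs1, and in 1.24% of all 32851 promoter windows. CCAAT was found in 11 of the 12 sterol synthesis genes with a window (91.7%) and in 4 of 7 fatty acid genes (57.1%), compared with 41.1% of all 27025 genes. GGGCGG was found in 11 of those 12 sterol genes and in 3 of the 7 fatty acid genes (42.9%), compared with 38.2% of all genes. The stretches below are upstream of the start of 4 genes with higher signal in cKO cells and of Fasn, which did not have it, and are written in the direction of the gene. Capitals mark the CCAAT box, which reads ATTGG where it lies on the other strand, and in Hmgcs1 also the sterol regulatory element. In Fasn both forms of the box overlap in one run. The positions are chr13:119690166-119690235 for Hmgcs1 and chrX:72918401-72918464 for Nsdhl on the plus strand, and chr8:122443438-122443497 for Mvd, chr1:121332605-121332649 for Insig2 and chr11:120824593-120824647 for Fasn on the minus strand.
Hmgcs1: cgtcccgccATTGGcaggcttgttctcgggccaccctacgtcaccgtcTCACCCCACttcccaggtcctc
Mvd: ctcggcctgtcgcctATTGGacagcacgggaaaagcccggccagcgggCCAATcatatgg
Nsdhl: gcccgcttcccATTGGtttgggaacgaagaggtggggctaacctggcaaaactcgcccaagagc
Insig2: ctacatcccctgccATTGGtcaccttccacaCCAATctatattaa
Fasn: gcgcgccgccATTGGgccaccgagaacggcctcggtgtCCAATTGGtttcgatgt
A match of letters describes the window and does not show that a factor binds there, and no window was searched for longer or degenerate forms of these elements.

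The first question was whether the 32 genes as a set differed between cKO and control iTreg cells. The mean was higher in cKO cells for 22 genes and lower for 10, with a median log2 fold change of 0.23. The median over all 22281 tested probes was -0.04, and 44.8% of them were higher. At an unadjusted limma p under 0.05, 11 members were higher in cKO cells, which is 34.4% of the list, compared with 11.5% of all tested probes. No member was lower at that threshold, compared with 11.4% of all probes. After Benjamini-Hochberg adjustment over all probes no member had a limma p under 0.05, and 54 probes did (0.242%), all close to the threshold. For 14 members (43.8%) the lowest cKO array was above the highest control array, compared with 15.9% of all probes. For 1 member, Scap, the highest cKO array was below the lowest control array, compared with 20.7% of all probes. The 11 members were Acat2, Hmgcs1, Pmvk, Mvd, Fdps, Fdft1 and Nsdhl of the sterol route, the regulator Insig2, and the desaturases Scd1, Scd2 and Fads2. Of these, 5 (Pmvk, Mvd, Nsdhl, Insig2 and Scd1) passed with the slide as a term, compared with 4.74% of all probes. Only 3 (Acat2, Scd1 and Fads2) passed after normexp background correction with the 75th percentile as scaling point, compared with 5.15% of all probes.

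**Figure D1:**
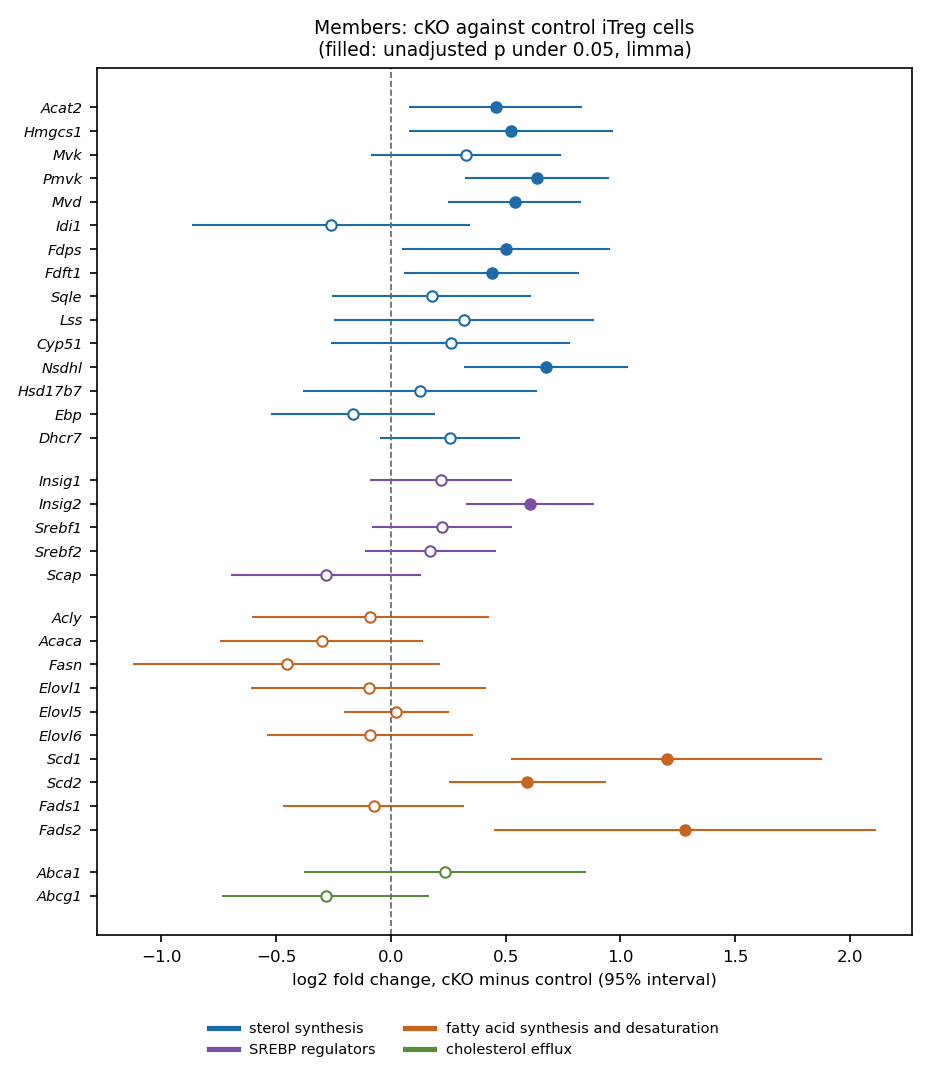
The log2 fold change (cKO minus control, horizontal axis) is plotted for each of the 32 genes with its 95% interval from limma; filled points have an unadjusted p under 0.05. Of 15 sterol synthesis genes, 13 lie above 0, whereas 6 of 10 fatty acid genes lie below 0 (4 of them above 0 without cKO array 3) and 3 desaturases stand at 0.59 to 1.28.

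Of the 5 listed enzymes of the mevalonate route up to isopentenyl diphosphate, Acat2, Hmgcs1, Pmvk and Mvd were higher in cKO cells at the unadjusted threshold and Mvk did not pass. With the slide as a term Pmvk and Mvd passed. Acat2, the cytosolic thiolase that joins acetyl-CoA units, read -1.35, -1.43 and -1.83 on cKO arrays 1, 2 and 3 and -2.04, -1.89 and -2.05 on control arrays 1, 2 and 3. Hmgcs1, which adds the next acetyl unit to make HMG-CoA, read 4.85, 5.28 and 4.74 on the cKO arrays and 4.52, 4.57 and 4.21 on the control arrays. The groups did not overlap for either gene, and in both cKO array 3 was closest to the controls. The log2 fold changes were 0.46 ± 0.15 (SE) for Acat2 (limma adjusted p = 0.177) and 0.52 ± 0.18 for Hmgcs1 (limma adjusted p = 0.185). The 3 probes for Hmgcs1 gave log2 fold changes from 0.26 to 1.32. Acat2 (0.36 to 0.43) no longer passed the unadjusted threshold when any one of cKO arrays 1 and 2 and control arrays 1 and 3 was left out, nor did Hmgcs1 without cKO array 2 (0.36) or control array 3 (0.41).

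A pair of kinases and a decarboxylase turn mevalonate into isopentenyl diphosphate, and the second kinase and the decarboxylase were higher in cKO cells at the unadjusted threshold. After normexp background correction with the 75th percentile as scaling point they were not, with 0.41 for Pmvk and 0.36 for Mvd. Mvk, mevalonate kinase, had a log2 fold change of 0.33 and overlapping groups (limma adjusted p = 0.282). It had 0.20 without control array 3 and 0.42 without cKO array 3. Pmvk, phosphomevalonate kinase, read 4.17, 4.28 and 4.33 on the cKO arrays and 3.76, 3.68 and 3.42 on the control arrays. Its probe A_51_P492410 lies at chr3:89272739-89272798 (mm9, the build of the array annotation). Pmvk was 1.55-fold higher in cKO cells, a log2 fold change of 0.64 ± 0.13 (SE; limma adjusted p = 0.103). It was the one sterol gene for which cKO array 3 was not the lowest of the cKO arrays. Mvd, mevalonate diphosphate decarboxylase, read 2.51, 2.44 and 2.20 on the cKO arrays and 1.79, 1.91 and 1.84 on the control arrays. The SD of the control arrays was 0.06 (n = 3). The log2 fold change was 0.54 ± 0.12 (limma adjusted p = 0.117).

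Of the next enzymes, which build farnesyl diphosphate and squalene, Fdps and Fdft1 were higher in cKO cells at the unadjusted threshold and Idi1 was not. Idi1, the isomerase that follows Mvd, had a log2 fold change of -0.26 (limma adjusted p = 0.526), with cKO array 3 at 3.50 and the other 5 arrays at 4.21 to 4.43. Fdps, farnesyl diphosphate synthase, read 3.86, 4.08 and 3.62 on the cKO arrays and 3.41, 3.59 and 3.06 on the control arrays. Fdft1, squalene synthase and the first enzyme committed to sterols, read 2.83, 2.89 and 2.46 on the cKO arrays and 2.27, 2.44 and 2.15 on the control arrays. For both genes the lowest cKO array, number 3, was only just above the highest control array, number 2. The log2 fold changes were 0.50 ± 0.18 for Fdps (limma adjusted p = 0.195) and 0.44 ± 0.16 for Fdft1 (limma adjusted p = 0.187). Neither passed the unadjusted threshold when any one of cKO arrays 1 and 2 and control arrays 1 and 3 was left out, with 0.36 to 0.53 for Fdps and 0.36 to 0.43 for Fdft1. Nor did they pass with the slide as a term, at 0.445 and 0.456, or after normexp with the 75th percentile, at 0.303 and 0.236. Sqle, the squalene epoxidase, had a log2 fold change of 0.18 with a 95% interval of -0.25 to 0.61, and Lss, which closes the ring to lanosterol, 0.32 with an interval of -0.24 to 0.88. The probes for Lss gave 0.25 to 0.86, and the mean over them, 0.47, passed the unadjusted threshold (limma adjusted p = 0.194), as did the mean over the probes for Dhcr7 and for Srebf2. Without cKO array 3 both Sqle and Lss passed that threshold, at 0.36 and 0.54, whereas without cKO array 1 they had 0.08 and 0.18.

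Of the 5 listed enzymes that turn lanosterol into cholesterol, Nsdhl was the one that passed the unadjusted threshold. Nsdhl, a dehydrogenase that removes methyl groups from the sterol ring, read 2.35, 2.40 and 2.01 on the cKO arrays and 1.62, 1.68 and 1.43 on the control arrays. Its probe A_52_P1013551 lies at chrX:70203042-70203104 (mm9). Nsdhl was 1.60-fold higher in cKO cells, a log2 fold change of 0.68 ± 0.15 (SE; limma adjusted p = 0.113), and its 4 tested probes gave 0.48 to 0.68. The groups did not overlap. Dhcr7, the last reductase of one branch, had a log2 fold change of 0.26 without overlap of the groups (limma adjusted p = 0.262). Cyp51, which removes a methyl group from lanosterol, had 0.26, Hsd17b7, the ketoreductase that works after Nsdhl, 0.13, and Ebp, the isomerase, -0.17, with limma adjusted p of 0.466, 0.723 and 0.492 and overlapping groups. Without cKO array 3 Dhcr7 and Cyp51 passed the unadjusted threshold, at 0.36 and 0.48, and Hsd17b7 had 0.31. Without cKO array 2 Cyp51 had 0.07 and Hsd17b7 -0.07. Ebp had -0.05 without cKO array 3 and -0.29 without cKO array 1.

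**Figure D2:**
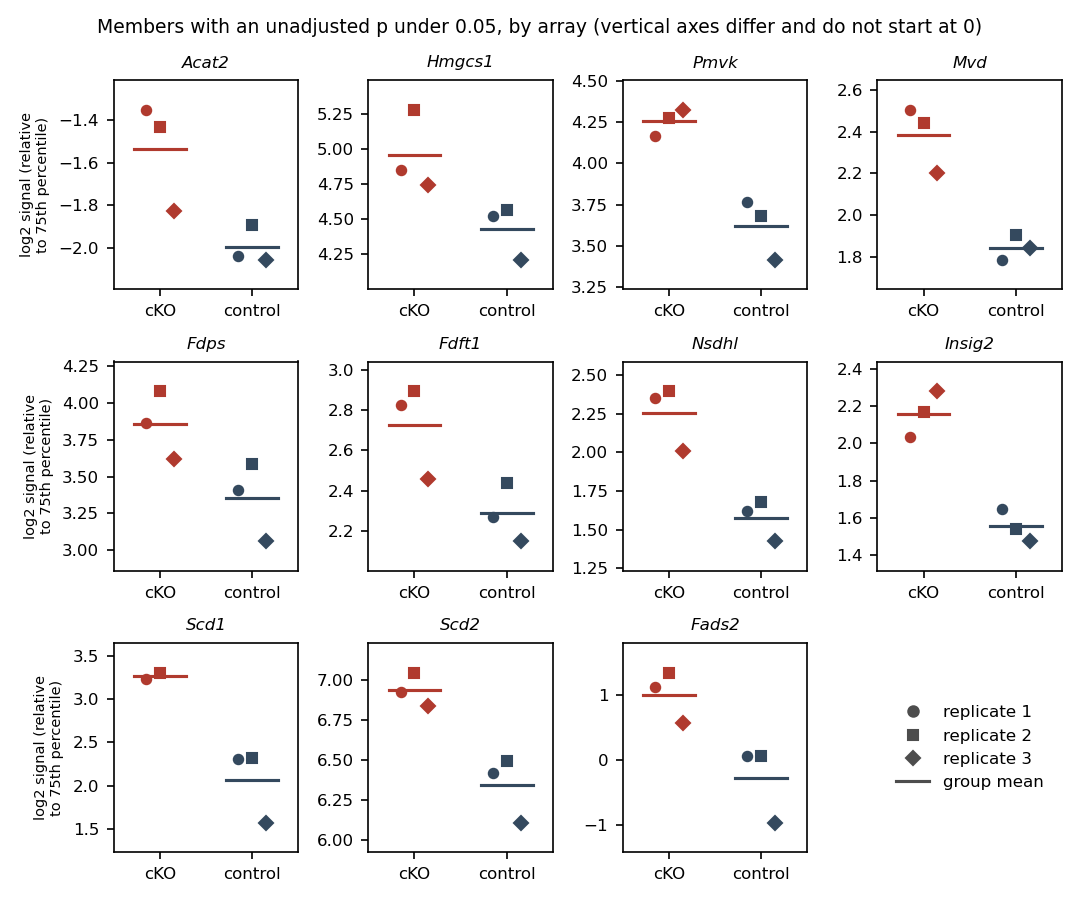
Each panel gives the log2 signal relative to the 75th percentile (vertical axis) of 1 of the 11 members with an unadjusted limma p under 0.05, with a point for each array and a line at the group mean; axes differ between panels. No cKO array falls below a control array in any panel, and Scd1 has no value on cKO array 3. Selection by that p makes overlap unlikely, and 15.9% of all tested probes have every cKO array above every control array.

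Taking the sterol genes as a class, 7 of 15 were higher in cKO cells with an unadjusted limma p under 0.05 (46.7%, compared with 11.5% of all probes), 8 did not pass and none was lower at that threshold. With the slide as a term 3 passed (4.74% of all probes), and after normexp with the 75th percentile 1 did (5.15% of all probes). The median log2 fold change was 0.33, and single genes ran from -0.26 (Idi1) to 0.68 (Nsdhl). After that correction Sqle, Hsd17b7 and Dhcr7 turned to -0.04, -0.04 and -0.01, which left 10 of the 15 above 0 and a class median of 0.28. After each gene's mean over the arrays was subtracted, the class median was 0.23, 0.34 and -0.06 on cKO arrays 1, 2 and 3 and -0.13, -0.05 and -0.29 on control arrays 1, 2 and 3. The groups overlapped at one point, since cKO array 3 was just below control array 2. cKO array 3 was the lowest of the cKO arrays for 14 of the 15 genes and control array 3 the lowest of the control arrays for 12. Without cKO array 3 the class median was 0.54 and 11 of the 15 genes passed the unadjusted threshold (10.1% of all probes). Without control array 3 the median was 0.22 and 3 genes passed (7.7% of all probes).

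Of the 5 regulators, Insig1, Insig2, Srebf1 and Srebf2 had a higher mean in cKO cells and Scap a lower one, but Srebf1 and Srebf2 turned to -0.02 and -0.04 after normexp with the 75th percentile. Insig2, one of the pair of proteins that hold SCAP and the SREBPs back, read 2.03, 2.17 and 2.28 on the cKO arrays and 1.65, 1.54 and 1.48 on the control arrays. Its probe A_51_P439452 lies at chr1:123201085-123201144 (mm9). Insig2 was 1.52-fold higher in cKO cells, a log2 fold change of 0.61 ± 0.11 (SE; limma adjusted p = 0.0964), the lowest p of the members, and its other probe gave 0.53. Here cKO array 3, which was lowest for most sterol enzymes, was the highest array. After normexp with the 75th percentile Insig2 had 0.46 and did not pass the unadjusted threshold.

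Insig1, which is itself a target of SREBP-2, read 0.34, 0.48 and 0.25 on the cKO arrays and 0.21, 0.25 and -0.04 on the control arrays. The lowest cKO and the highest control array were nearly equal, and the log2 fold change of 0.22 had a limma adjusted p of 0.325. Srebf1 read 5.32, 5.43 and 5.12 on the cKO arrays and 5.12, 5.12 and 4.95 on the control arrays, with overlap and a log2 fold change of 0.22 (limma adjusted p = 0.310), and it passed the unadjusted threshold, at 0.31, without cKO array 3. Srebf2 read 5.05, 5.28 and 5.11 on the cKO arrays and 5.04, 5.02 and 4.85 on the control arrays, so the groups were next to each other, with a log2 fold change of 0.17 (limma adjusted p = 0.383). Scap, the escort, read 4.17, 4.01 and 3.58 on the cKO arrays and 4.18, 4.17 and 4.25 on the control arrays. cKO arrays 1 and 2 were close to the controls and array 3 well below, and the log2 fold change of -0.28 had a limma adjusted p of 0.335. SREBP activity is set by cleavage of the protein, which transcript levels do not measure.

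Of the 10 fatty acid genes, 3 desaturases were higher in cKO cells at the unadjusted threshold (30.0%, compared with 11.5% of all probes) and 7 did not pass. The enzymes that build and lengthen the chain were among the latter. Acly, which makes cytosolic acetyl-CoA from citrate, had a log2 fold change of -0.09 (95% interval -0.60 to 0.42). Acaca, the carboxylase that makes malonyl-CoA, had -0.30 (-0.74 to 0.14), but its 4 probes ran from -0.30 to 0.13, the one member whose probes differed in sign among the 17 with more than 1 tested probe. Without cKO array 1 Acaca had -0.45 and passed the unadjusted threshold, and without cKO array 3 it had -0.11 and did not. The elongases Elovl1, Elovl5 and Elovl6 had -0.10, 0.02 and -0.09, and the desaturase Fads1 -0.08, each with an interval that holds 0, and all of them as well as Acly changed sign without cKO array 3. Fasn, the synthase itself, is given by array although this was chosen after its values were seen. It read 6.48, 6.26 and 5.43 on the cKO arrays and 6.52, 6.46 and 6.55 on the control arrays, so that cKO array 1 was level with the controls and array 3 about 1 log2 unit below. Its log2 fold change was -0.46 with all arrays (95% interval -1.12 to 0.21, limma adjusted p = 0.339), -0.14 without cKO array 3 and -0.67 without cKO array 1, when it passed the unadjusted threshold (limma adjusted p = 0.17).

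The desaturases Fads2, Scd2 and Scd1, which place double bonds in finished chains, were higher in cKO cells at the unadjusted threshold, unlike the desaturase Fads1. Fads2, an early enzyme of polyunsaturated fatty acid synthesis, read 1.11, 1.33 and 0.56 on the cKO arrays and 0.07, 0.05 and -0.96 on the control arrays. Its probe A_51_P364609 is placed at chr19:10138750-10139180 (mm9). Fads2 was 2.43-fold higher in cKO cells, a log2 fold change of 1.28 ± 0.34 (SE; limma adjusted p = 0.143), and array 3 was the lowest in both groups. With the slide as a term it was 0.93 and no longer passed the unadjusted threshold. Scd2, a stearoyl-CoA desaturase found in many tissues outside the liver, read 6.93, 7.05 and 6.84 on the cKO arrays and 6.42, 6.50 and 6.11 on the control arrays. The groups did not overlap, with a log2 fold change of 0.59 ± 0.14 (limma adjusted p = 0.122), and with the slide as a term Scd2 had 0.52 and no longer passed either.

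Scd1, the related desaturase best known from liver and fat, read 3.23 and 3.30 on cKO arrays 1 and 2 and 2.31, 2.32 and 1.57 on the control arrays. The spot on cKO array 3 was marked as an outlier by the extraction software and was left out, so the fit had 2 cKO values and 3 control values. The log2 fold change was 1.20 ± 0.27 (limma adjusted p = 0.127), with a probe, A_52_P682382, at chr19:44469387-44469446 (mm9). Scd1 and Scd2 are close in sequence, and whether either probe also binds the other transcript was not tested.

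The last comparison was between the 2 classes. The median log2 fold change was 0.33 for the 15 sterol genes and -0.08 for the 10 fatty acid genes, a difference of 0.41. On single arrays the sterol median minus the fatty acid median, each after gene means were subtracted, was 0.02, 0.25 and 0.33 on cKO arrays 1, 2 and 3 and -0.14, -0.10 and -0.25 on control arrays 1, 2 and 3. The groups did not overlap in this difference, and cKO array 1 was closest to the controls. The fatty acid median alone was 0.21, 0.09 and -0.39 on the cKO arrays and 0.00, 0.05 and -0.04 on the control arrays, so the low class median rested on cKO array 3. On that array it was taken over 9 genes, since Scd1, one of the genes higher in cKO cells, had no value there. Without that array the fatty acid median was 0.11, of opposite sign, and the sterol genes stayed higher by 0.43. The difference ran from 0.27 without control array 3 to 0.53 without cKO array 1.

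**Figure D3:**
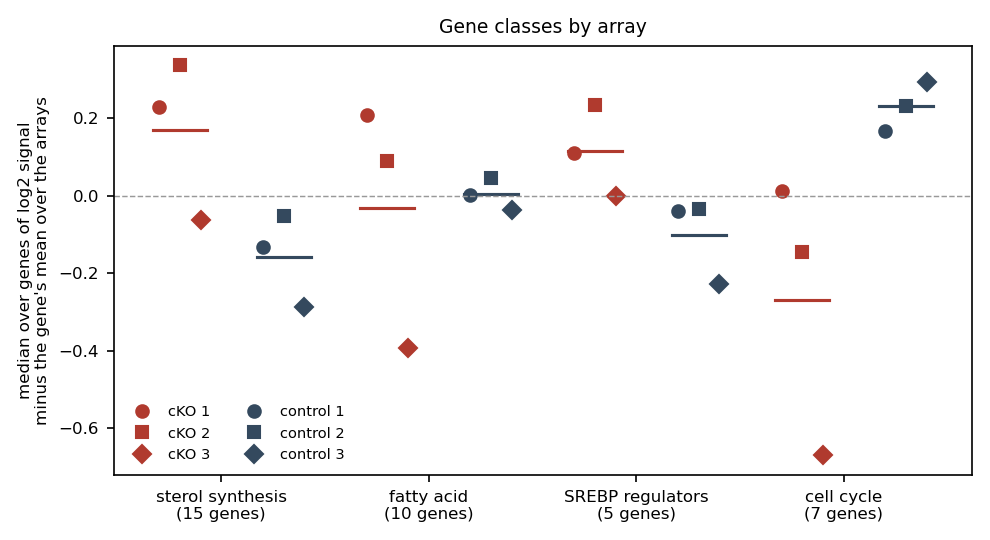
For each class the median over its genes of the log2 signal minus the gene's mean over the arrays with a value (vertical axis) is plotted for each array, with a line at the group mean; Scd1 has no value on cKO array 3. The sterol medians are -0.06 to 0.34 in cKO and -0.29 to -0.05 in control arrays, cKO array 3 is the lowest cKO array for sterol, fatty acid, regulator and cell cycle genes, and it alone of the cKO arrays has a fatty acid median below 0.

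The efflux transporters Abca1 and Abcg1, which are targets of the liver X receptors when sterols are plentiful, did not pass the test. Abca1 had a log2 fold change of 0.24 (95% interval -0.38 to 0.85) and Abcg1 -0.29 (-0.73 to 0.16), and the groups overlapped for both genes. Without control array 3 the value for Abca1 was 0.51 and passed the unadjusted threshold (limma adjusted p = 0.337), and without control array 2 it was 0.05. For Abcg1 the value was -0.14 without control array 3 and -0.42 without cKO array 1.

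Other genes of these routes, 41 on a list drawn up by function, were examined next, and 38 of them were tested. At an unadjusted limma p under 0.05, 6 were higher in cKO cells and 1 was lower, or 15.8% higher compared with 11.5% of all probes, and the median log2 fold change was 0.03. With the slide as a term 2 of the 38, Tm7sf2 and Acss2, were higher at that threshold, at 0.99 and 1.21 on the log2 scale, compared with 4.74% of all probes, and Msmo1, Sc5d, Stard4, Slc25a1 and Acsl5 did not. Pdss2, Mbtps2 and Me1 were not well above background on enough arrays to enter the test.

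Of 7 further sterol and isoprenoid genes tested, 3 were higher at the unadjusted threshold, compared with 11.5% of all probes, and 1 of them, Tm7sf2, with the slide as a term. Tm7sf2, a sterol C14 reductase that acts right after Cyp51, read 2.34, 2.44 and 2.22 on the cKO arrays and 1.34, 1.44 and 1.31 on the control arrays. Its probe A_52_P35064 lies at chr19:6062882-6062941 (mm9). Tm7sf2 was higher by 0.97 ± 0.11 on the log2 scale (limma adjusted p = 0.0495), with both groups tight and far apart. Its adjusted limma p was under 0.05 in 7 of 19 alternative settings and its unadjusted p in all 19, and the adjusted p ranged from 0.0272 to 0.602. Lbr, which carries the same reductase activity, had a log2 fold change of -0.17 with overlap (limma adjusted p = 0.383). Msmo1, the methyl sterol oxidase that works beside Nsdhl, had 0.41 (limma adjusted p = 0.183), and Sc5d, the desaturase before Dhcr7, 0.31 (limma adjusted p = 0.212), both without overlap of the groups. When 1 array was left out, Msmo1 (0.30 to 0.42) lost the unadjusted threshold in 4 of 6 cases and Sc5d (0.23 to 0.32) in 5. Pdss1, which builds the ubiquinone side chain, had -0.48 (limma adjusted p = 0.26), and leaving out cKO array 2 gave -0.64 and cKO array 3 -0.22, both past the unadjusted threshold.

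In SREBP processing and sterol handling, Stard4, a carrier of cholesterol between membranes, had a log2 fold change of 0.57 by its brightest probe (limma adjusted p = 0.165), whereas its other probes gave -0.18 and 0.03 and the mean over the probes, 0.14, did not pass. Mbtps1, the first protease to cut SREBPs, had 0.22 (limma adjusted p = 0.247). None of 6 genes of cholesterol transport and storage passed by its brightest probe, compared with 11.5% of all probes higher and 11.4% lower. Npc2, which moves cholesterol out of lysosomes, had 0.35, and 0.08 to 0.49 with 1 array left out. Soat1, which esterifies cholesterol for storage, had 0.05 by its brightest probe but 0.31 and 1.04 by its other probes. By the mean over the probes, 0.46, Soat1 passed the unadjusted threshold (limma adjusted p = 0.101). None of 5 liver X receptor genes passed, compared with the same shares of all probes. Rxra, a partner of the receptors, had -0.53 by its brightest probe and their target Mylip, a ubiquitin ligase, 0.22. The other probe for Rxra gave 0.19 and the mean over the probes -0.17, and without cKO array 1 the brightest probe gave -0.83 and passed the unadjusted threshold (limma adjusted p = 0.115). Mylip had 0.01 without cKO array 3 and 0.46 without cKO array 2, when it passed that threshold.

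Of the genes that supply acetyl-CoA and build or activate fatty acids, Acss2 and Slc25a1 were higher at the unadjusted threshold. Acss2, which makes cytosolic acetyl-CoA from acetate, read 0.30, 0.31 and 0.87 on the cKO arrays and -0.72, -0.34 and -0.61 on the control arrays. Its log2 fold change was 1.05 ± 0.20 (limma adjusted p = 0.098), and the second probe gave 1.03, but a further probe, well above background on 3 arrays, gave -0.40, and the mean over the probes was 0.56, which did not pass. Slc25a1, the carrier that exports citrate from mitochondria, had 0.52 (limma adjusted p = 0.162), and 0.42 without control array 3, when it did not pass. Acsl5, which activates fatty acids, was the one gene lower in cKO cells at the unadjusted threshold, by -0.46 (limma adjusted p = 0.209). It did not pass when any one control array was left out, and it had -0.26 without cKO array 3. Its relative Acsl1 had -0.53 (limma adjusted p = 0.259), and -0.68 to -0.25 with 1 array left out. Of the 11 genes tested here, 2 were higher (18.2%, compared with 11.5% of all probes), 1 was lower (11.4% of all probes) and 8 did not pass. None of 7 genes of fatty acid oxidation passed, compared with 11.5% of all probes higher and 11.4% lower. Cpt2 had -0.28, Hadhb 0.24 and Cpt1a, the gate of mitochondrial fatty acid entry, 0.23. The groups did not overlap for any of these genes, with cKO below control for Cpt2 and above it for Hadhb and Cpt1a. Of all probes, 15.9% had every cKO array above every control array and 20.7% below. Each of the named oxidation genes passed the unadjusted threshold with 1 array left out, Cpt2 (-0.35) without control array 1, Hadhb (0.30) without cKO array 1 and Cpt1a (0.28) without cKO array 3.

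**Figure D4:**
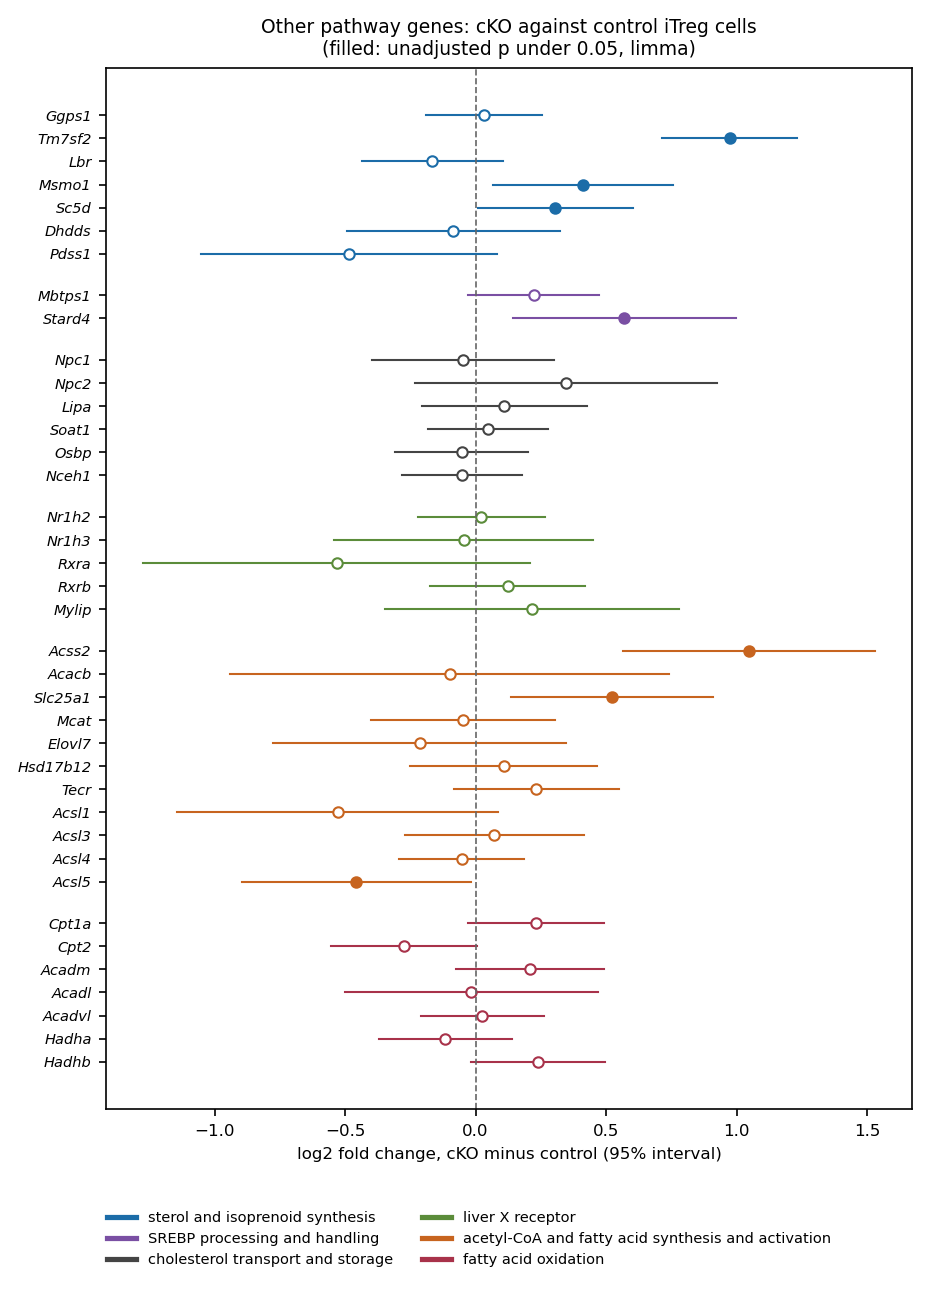
The log2 fold change (cKO minus control, horizontal axis) of the 38 tested genes of the wider list is plotted with its 95% interval from limma, coloured by function; filled points have an unadjusted p under 0.05. Tm7sf2 and Acss2 stand near 1, Acsl5 is the filled point below 0 at -0.46, and the transport, liver X receptor and oxidation genes have no filled point. Of all tested probes, 11.5% are higher and 11.4% lower at that p.

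Other groups of genes also differed between cKO and control cells, some of them in the opposite direction to the sterol genes. Fewer cells of a type and less RNA per cell cannot be told apart in such cultures. All 7 cell cycle genes had a lower mean in cKO cells, with a median of -0.40, or -0.22 without cKO array 3. Top2a, Mcm2 and Mcm5 were lower by -0.59, -0.75 and -0.81 with an unadjusted limma p under 0.05, compared with 11.4% of all probes. All 7 were lower in every alternative, and none of them passed with the slide as a term. Their summed signal, in units of the 75th percentile, was 239.7, 217.9 and 156.9 on the cKO arrays and 238.7, 261 and 271.2 on the control arrays, and the brightest probe was that for Pcna. cKO array 3 was thus low for cell cycle genes, for 14 of 15 sterol genes and for 8 of 9 fatty acid genes with a value on every cKO array. It also had the lowest 75th percentile, 987.4 compared with 1047.6 to 1147.5 on the other arrays. Of 6 T-cell genes, 4 were higher at the unadjusted threshold, compared with 11.5% of all probes, Cd2 had 0.06 and did not pass, and Cd3e was lower at that threshold, by -0.28, but the other probe for Cd3e gave 0.78 and the mean over both 0.25. None of the 6 passed with the slide as a term. Their summed signal was 143.9, 164.8 and 196 on the cKO arrays and 135.9, 137.9 and 123 on the control arrays, and the brightest probe was that for Cd3d.

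The regulatory T-cell markers did not move together. All 5 were well above background on every array, with summed signals of 171.5, 194.9 and 189.2 in cKO and 175.6, 172.3 and 137.2 in control arrays, and the brightest probe was that for Tnfrsf18. Foxp3, which defines the lineage, had a log2 fold change of -0.62 and Ctla4, an inhibitory receptor, 0.94, both with an unadjusted limma p under 0.05. Of all probes, 11.4% were lower and 11.5% higher at that threshold. Neither gene passed with the slide as a term, where they had -0.50 and 0.66. Foxp3 (-0.50 to -0.67) did not pass when any one control array was left out, and had -0.39 without cKO array 3. In the study, flow cytometry found more iTreg cells from cKO than from control naive T cells in culture. That is a share of Foxp3-positive cells, whereas the array gives the mean RNA of a whole culture. Why the directions differ was not tested. Il2ra, at -0.56, Tnfrsf18, at 0.40, and Ikzf2, at 0.51, did not pass by their brightest probes. The other probes for Il2ra gave -0.66 to -0.03 and did not pass. Those for Ikzf2 gave 0.64 to 1.22, and the probes at 1.22 and 0.92 passed the unadjusted threshold. Of 5 epithelial markers, Epcam and Cdh1 were higher by 0.61 and 1.01 at the unadjusted threshold, compared with 11.5% of all probes. Krt18 had 0.45 and did not pass, and Krt8 was above background on no array. The summed signals of the 5 were 1.52, 1.34 and 1.97 in cKO and 0.88, 0.81 and 0.92 in control arrays. With the slide as a term Epcam passed, at 0.78, and Cdh1, at 0.88, did not. Both CD8 markers were above background on every array, with summed signals of 4.06, 3.87 and 4.34 in cKO and 5.34, 4.42 and 5.61 in control arrays. Cd8a had a log2 fold change of -0.86 (limma adjusted p = 0.254) and Cd8b1 -0.18 (limma adjusted p = 0.55), and neither passed by its brightest probe. The other probes for Cd8a gave -0.93 and -0.91 and passed the unadjusted threshold. B-cell, myeloid, erythroid and adipocyte or hepatocyte markers summed to at most 1.27, 0.29, 0.18 and 0.20 on any array, with Pax5, Alas2, Plin1, Fabp4 and Alb above background on none. The B-cell marker Cd79b was well above background on all 6 arrays, with a log2 fold change of 0.60 (limma adjusted p = 0.334), and the myeloid marker Csf1r on 4, with 0.15 (limma adjusted p = 0.734). Without cKO array 3 Cd79b had 0.27 and Csf1r -0.06. The part of these differences in the sterol and desaturase results was not tested.

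**Figure D5:**
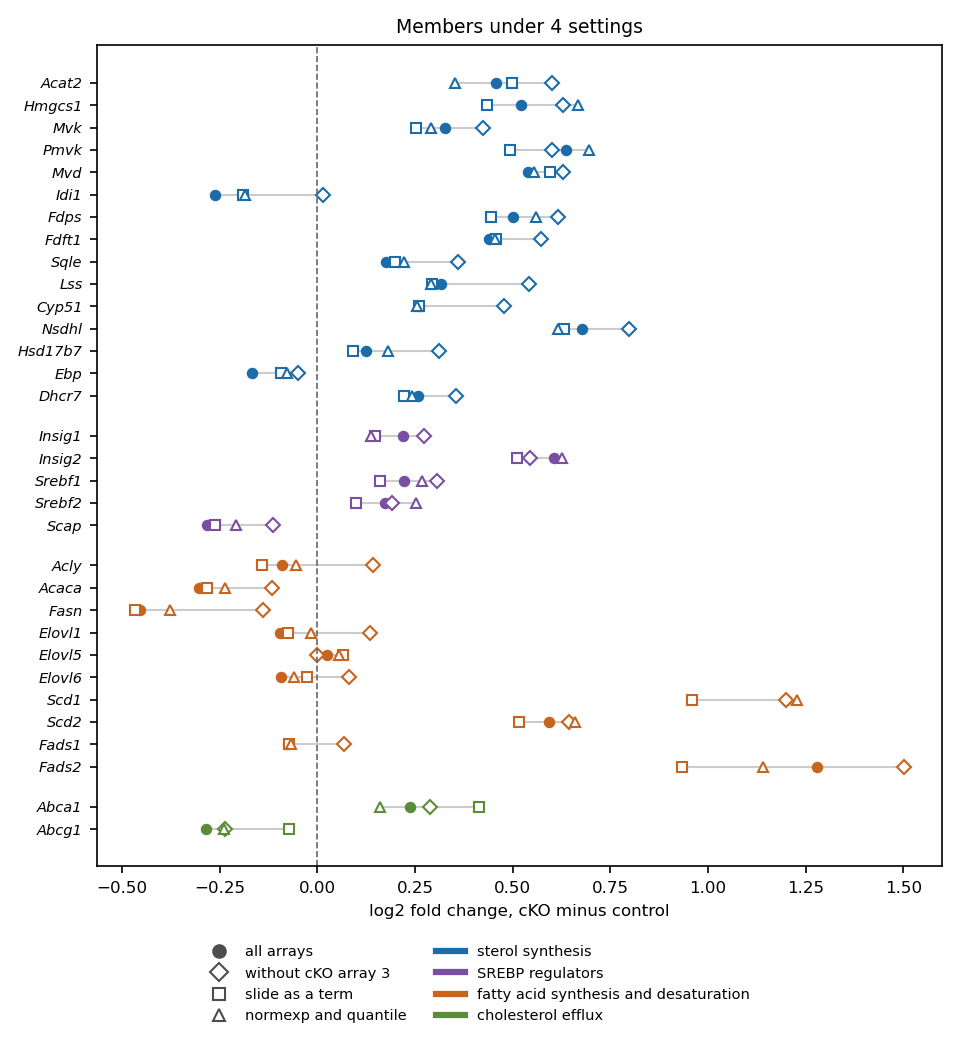
The log2 fold change (cKO minus control, horizontal axis) of each of the 32 genes is plotted with all arrays (filled), without cKO array 3, with the slide as a term, and after normexp background correction with quantile normalization. All 11 members named above stay above 0 in the 4 settings, while Acly, Elovl1, Elovl6, Fads1 and Idi1 are below 0 with all arrays and above 0 without cKO array 3. The 11 were chosen by a higher signal on these same arrays, so a reversal was unlikely in advance.

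Slide 2 held control arrays only, so part of the contrast cannot be told apart from the slide. With the slide as a term, 5 members were higher with an unadjusted limma p under 0.05, namely Pmvk, Mvd, Nsdhl, Insig2 and Scd1, compared with 4.74% of all probes, or 15.6% of the members. Their log2 fold changes in that fit were 0.49, 0.60, 0.63, 0.51 and 0.96. The median of the sterol genes was 0.29 and that of the fatty acid genes -0.05. Within slide 1, the differences are the same by construction and a single control array is assumed to vary like the cKO arrays. There 1 member, Scd1, with 2 cKO values and 1 control value, was higher at the unadjusted threshold, compared with 3.91% of all probes. After normexp with the 75th percentile, the median of all probes was 0.11 and 3 members were higher at the unadjusted threshold, namely Acat2, Scd1 and Fads2, compared with 5.15% of all probes.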

How the data were processed

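The authors labelled RNA with Cy3, hybridised 1 whole mouse genome Agilent array per mouse and read it with Agilent Feature Extraction (9.1 in the submitters' processing notes, 10.7.3.1 in the file headers). The deposited spot intensity (processed signal) is linear and background-subtracted. A deposited log2 table was used as an alternative only. How it was normalized is not given in the sources used here; its columns have nearly equal distributions. From each array, 123 to 140 outlier spots were dropped, spots of a probe were averaged, and log2 intensity minus the array's 75th percentile over 43379 non-control spots was taken. Of 41174 probes, the 22281 that were well above background on 3 or more arrays were fitted with limma 3.58.1 (R 4.3.3, lmFit and eBayes), and p-values were adjusted over all of these by the Benjamini-Hochberg method. Calls used p under 0.05, unadjusted or adjusted. The fit was also run on simulated arrays drawn independently for each probe. These held no slide or array effect, so the run checked the code and not the design.

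The members, lists and tests were chosen with earlier results of these data known. Every member is accounted for. Values by array are given for the 10 members with the largest change, for the regulators and for members with an unadjusted p under 0.05; of the wider list, genes with an unadjusted p under 0.05 and up to 3 more per class by size are named. Some genes of the wider list are not reported here. There were 19 alternatives, one of them (outlier spots left out of the percentile) chosen after seeing the data. No probe gave a depth in reads, and the number of arrays limits the precision. Replicate numbers in the labels are shared by the groups. Correlations of deviations between arrays of the same number were -0.14, 0.01 and -0.19, so the numbers were not taken to pair mice. Sequences and motif counts came from RefSeq (GRCm38.p6); Sqle, Fdps, Fdft1, Scd1, Scd2, Fads1 and Abcg1 were not searched. Python 3.11.15, pandas 2.3.3 and matplotlib 3.10.9 made the tables and figures.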

Additional observations from a re-analysis of the deposited data

How the results depend on the processing

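The 11 members higher in cKO cells kept that direction in every alternative in which they were tested. They were chosen by a call in that direction on these same arrays, so a reversal was unlikely in advance. Scd1 did not enter the fit limited to probes well above background on all 6 arrays. Its spot on cKO array 3 had been dropped as an outlier. Over members and alternatives, 546 of 607 values kept their side of the unadjusted threshold, 43 lost it, 18 gained it and none with a call on either side changed sign. Only the 11 called members could lose the threshold, so all 43 losses were theirs. They stayed past it in 10 of 19 alternatives (Fdps and Fdft1) to 18 of 18 (Scd1). Normexp with the 75th percentile moved the median of all probes from -0.04 to 0.11 and the share of higher among unadjusted calls from 50.3% to 69.0%; 3 members were then higher, 1 of them a sterol gene, compared with 5.15% of all probes, and the sterol median was 0.28 with 10 of 15 genes above 0. Members higher at the unadjusted threshold numbered 5 with the slide as a block (4.74% of all probes), 1 within slide 1 (3.91%), 13 or 14 with quantile normalization, with normexp and quantile normalization, in the authors' table and by the mean over the probes (11.8% to 12.3%), and 7 (without cKO array 2, 9.87%) to 16 (without cKO array 3, 10.1%) with 1 array left out. Members lower numbered 0 to 2, the 2 being Fasn and Acaca without cKO array 1. By the methods' t-test 8 members were higher, 4 of them sterol genes, compared with 9.35% of all probes. Sterol genes that were higher numbered 3 with the slide as a block. They numbered 3 (without cKO array 2 or control array 3) to 11 (without cKO array 3) with 1 array left out. The sterol median was 0.221 to 0.542, the fatty acid median -0.184 to 0.108 and their difference 0.272 to 0.532 with 1 array left out. No member passed the adjusted threshold of limma in any alternative. Probes that did, 54 with all arrays, numbered 110 with normexp and quantile normalization, 28 with quantile normalization, 28 in the authors' table, 174 with the filter on all 6 arrays and 105 with trend and robust fitting. They numbered 0 with normexp and the 75th percentile, without the filter, by the methods' t-test, with the slide as a block, within slide 1 and with the replicate block, and 0 to 1 with 1 array left out. With the replicate block 11 members, 7 of them sterol genes, were higher at the unadjusted threshold, as without it. The share of all probes was 8.98%, compared with 11.5% without the block. The sterol and fatty acid medians did not move (0.327 and -0.083). The cause of these changes was not tested. Both fits that account for the slide take the difference from control array 1 alone.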
